A study of Mus musculus with 28 samples.

Results

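Mouse embryonic fibroblasts (MEF) in which reprogramming had been switched on with doxycycline were compared with and without the compound mix called 3C, over all genes measured by RNA sequencing. The comparison takes 6 of the 28 samples of the series: 3 libraries of doxycycline with 3C (DOX 3C) and 3 of doxycycline alone (DOX). Of 54109 annotated genes, 16138 had enough reads to be tested. The same compounds were also compared in the presence of UNC0638 (UNC), an inhibitor of the H3K9 methyltransferases G9a and GLP, in 3 libraries each of DOX 3C UNC and DOX UNC. Neither contrast uses the mean of a library of the other, but all 12 libraries were filtered and fitted together and share 1 estimate of the spread. The other samples of the series, 10 profiles of H3K9me2 and 6 libraries of induced pluripotent stem cells, were not used here.

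DOX 3C cells received 1 µg/ml doxycycline, 50 µg/ml L-ascorbic acid, 3 µM CHIR99021 and 250 nM TGF-b RI Kinase Inhibitor II, which another label calls iALK5. DOX cells received 1 µg/ml doxycycline only, and the UNC groups had 1 µM UNC0638 added to these media. All 4 groups were MEF from embryos of day E13.5 to E15.5, heterozygous for Rosa26-rtTA and for Oct4-GFP, seeded at 250 cells per cm2 on irradiated feeder cells. They carried either a heterozygous doxycycline-inducible OKSM allele or a homozygous inducible OKS allele, and the labels do not assign these alleles to libraries. The time at which RNA was taken was not given for these libraries, nor whether the 3 libraries of a group were separate cultures or embryos. P-values therefore measure the spread between libraries, which may be technical. Irradiated feeder cells were in the cultures, so their RNA may be part of every library.

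Each compound of the mix has a known target, but the compounds were always given together. No change reported here can be assigned to a single compound. CHIR99021 inhibits the kinase GSK3, which otherwise marks beta-catenin for destruction; beta-catenin then enters the nucleus and, with TCF and LEF proteins, switches on Wnt target genes, several of which encode brakes on the pathway. TGF-b RI Kinase Inhibitor II blocks the receptor kinase ALK5 (encoded by Tgfbr1), which phosphorylates SMAD2 and SMAD3; in fibroblasts this pathway drives genes of the extracellular matrix and of contractile fibres. Ascorbic acid is an antioxidant and keeps the iron of 2-oxoglutarate dioxygenases reduced, an enzyme family that includes histone demethylases, the TET proteins and the collagen hydroxylases. In reprogramming to pluripotency, fibroblasts lose mesenchymal genes and gain epithelial ones before the pluripotency network comes on.

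The DOX 3C libraries held 12745200, 20211641 and 19351759 reads in genes, against 12650096, 12904676 and 10616764 in the DOX libraries. The deposited values were reads divided by 1 factor per library and are called normalised counts below. They serve to compare libraries, not genes, since gene length was not taken into account. Between 6.19 and 7.09% of a library's reads came from its 10 leading genes. Reads of Lars2 and Gm15564, loci that can collect fragments of ribosomal RNA, varied within groups and were lower on average in DOX 3C. Lars2 took 0.253, 0.0476 and 0.151% of the reads in DOX 3C, against 0.571, 0.296 and 0.59% in DOX. The largest shift in share of reads was that of Gm26917, with a mean of 1.99% in DOX 3C and 1.43% in DOX. The part of these loci in the results was not tested. Fewer cells of a type and less RNA per cell cannot be told apart in bulk RNA.

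3C was followed by many small changes and a smaller number of large ones. By limma with Benjamini-Hochberg adjustment, 7978 of 16138 genes (49.4%) had an adjusted p below 0.05, which is the criterion for a call throughout. Of these, 3984 rose (24.7%) and 3994 fell (24.7%), and 6957 were protein coding. Most changes were modest: 6248 of the called genes differed by less than 2-fold. At least 2-fold, 678 genes rose (4.20%) and 1052 fell (6.52%), and at least 4-fold 184 rose and 283 fell. The median log2 fold change over all genes tested was 0.02. The 3 DOX 3C libraries lay wholly above or wholly below the 3 DOX libraries for 9298 genes (57.6%), and the median standard error of a log2 fold change was 0.10. Fold changes were taken on log2(value + 1), which understates the change of genes with few reads. Values given with ± below are log2 fold changes of DOX 3C over DOX with their standard errors, unless UNC is named, and gene positions are in GRCm38.p6.

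**Figure D1:**
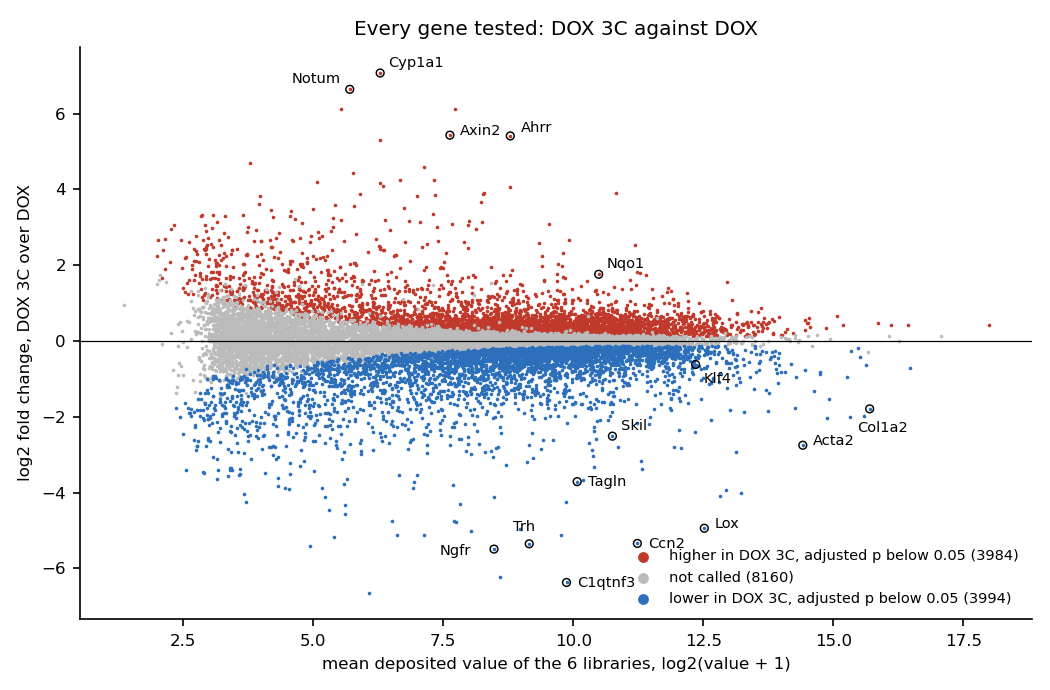
Log2 fold change of DOX 3C over DOX (vertical axis) against the mean deposited value of the 6 libraries on a log2(value + 1) scale (horizontal axis) for the 16138 genes tested; red points rose (3984), blue points fell (3994) and grey points were not called, and circles mark genes named in the text. Cyp1a1 and Notum stand at the top with log2 fold changes of 7.07 and 6.64, while abundant genes such as Col1a2 and Acta2 lie below 0 at -1.79 and -2.75.

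The genes with the largest increases were led by targets of the aryl hydrocarbon receptor and of Wnt signalling. Cyp1a1, a cytochrome P450 that oxidises aromatic compounds (ENSMUSG00000032315, chromosome 9, 57687928 to 57703824), had 129, 68.9 and 263 normalised counts in the DOX 3C libraries and no read in the DOX libraries, which makes it at least 119-fold higher when 3 reads over the DOX group are taken as the floor. Notum, a secreted lipase that inactivates Wnt proteins (ENSMUSG00000042988, chromosome 11, 120653788 to 120661193), had 134, 74.8 and 95.7 normalised counts in DOX 3C and likewise no read in DOX, at least 78.3-fold higher. Both genes had reads in every DOX 3C library, as the rule that chose them required. Slpi, a secreted inhibitor of leukocyte proteases, had 91.3, 87.4 and 91.9 normalised counts in DOX 3C against a single read in the 3 DOX libraries, a ratio of 217 with a 95% counting interval of 38.7 to 8603. The hydroxysteroid dehydrogenase gene Akr1c18 had 358, 507 and 383 in DOX 3C and 6.13, 10.8 and 1.46 in DOX, a log2 fold change of 6.12 ± 0.39 (limma adjusted p = 5.39e-10).

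Among the other genes of the 12 largest increases were a translation factor, a channel and a water pore. Eef1a2, an elongation factor isoform of muscle and neurons, had 177, 137 and 139 normalised counts in DOX 3C and 1.23, 3.60 and 4.39 in DOX (5.31 ± 0.29 on the log2 scale). Aqp5, an aquaporin of secretory epithelia, rose by 4.58 ± 0.30, and Kcnj2, an inward rectifier potassium channel, rose by 4.24 ± 0.18. The receptor gene Mrgprf, the ubiquitin ligase gene Ccnb1ip1 and the membrane protein gene Tmem26 rose by 4.42 ± 0.26, 4.25 ± 0.36 and 4.19 ± 0.34. Axin2 and Ahrr, the remaining 2 of the 12, are described with their pathways below. The rule that chose the 12 largest changes each way required groups of libraries that do not overlap.

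The largest decreases included several genes that were well measured in DOX. C1qtnf3, a secreted adipokine-like protein also called CTRP3 (ENSMUSG00000058914, chromosome 15, 10952119 to 10980162), had 20.2, 21.5 and 22.4 normalised counts in DOX 3C against 1961, 1779 and 1803 in DOX, 82.7-fold lower (log2 fold change -6.37 ± 0.10, limma adjusted p = 5.17e-18). Megf10, an engulfment receptor, had 9.49, 7.41 and 10.8 in DOX 3C and 803, 665 and 819 in DOX (-6.23 ± 0.18 on the log2 scale). Ngfr, the p75 neurotrophin receptor, had 11.9, 10.4 and 23.9 in DOX 3C and 733, 674 and 674 in DOX (-5.49 ± 0.21).

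Several secreted or surface signalling genes were in the same set. Trh, which encodes the precursor of thyrotropin-releasing hormone, had 13, 33.3 and 40.1 normalised counts in DOX 3C and 1041, 1202 and 1079 in DOX (-5.35 ± 0.29 on the log2 scale). Tnfrsf11b encodes osteoprotegerin, a decoy receptor that restrains osteoclasts, and had 39.1, 52.6 and 52.5 in DOX 3C and 1463, 1836 and 1779 in DOX (-5.11 ± 0.13). Lgr6, a receptor for R-spondins, fell by 5.12 on the log2 scale to 4.75, 5.18 and 11.6 normalised counts, against 200, 299 and 310 in DOX. The fatty acid binding protein gene Fabp7, the cytoskeletal adaptor gene Kank4 and the predicted gene Gm15866 had log2 fold changes of -5.13 ± 0.38, -5.00 ± 0.30 and -5.17 ± 0.40. Krt84, a hair keratin, had a single read over the 3 DOX 3C libraries and 121, 166 and 108 normalised counts in DOX, 450-fold lower with a 95% counting interval of 80.1 to 17820. Sptssb, a subunit of serine palmitoyltransferase, was at 0.00, 1.48 and 0.00 in DOX 3C and 47.8, 46.8 and 80.5 in DOX, a ratio of 96.2 with an interval of 26.1 to 802. Ccn2 completes the 12 and is described with TGF-beta.

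The 4 reprogramming factors fell together, by about the same amount. Pou5f1, which encodes OCT4 (ENSMUSG00000024406, chromosome 17, 35506032 to 35510777), had 2384, 2539 and 2529 normalised counts in DOX 3C and 3499, 3556 and 3568 in DOX, a log2 fold change of -0.51 ± 0.05 (limma adjusted p = 4.6e-07). Sox2 had 1922, 1945 and 1949 in DOX 3C and 3133, 3083 and 2861 in DOX (-0.64 ± 0.07 on the log2 scale). Klf4 had 4169, 3998 and 4168 in DOX 3C and 6193, 6504 and 6317 in DOX (-0.62 ± 0.05). Myc had 4140, 4185 and 3853 in DOX 3C and 6323, 6579 and 6204 in DOX (-0.65 ± 0.05). In all 4 the highest DOX 3C library was below the lowest DOX library, and 57.6% of all genes had groups that did not overlap in either direction. These reads combine endogenous transcripts with those of the inducible alleles, for Myc only in cells with OKSM, and both sources were counted as one. This lower level of the factors moved with every other difference described here, and its part in them was not tested.

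Wnt targets rose. Of 24 genes on a list of Wnt feedback and target genes, 15 passed the filter on low values, 11 rose, where 24.7% of all genes did, and the other 4 were not called; the median log2 fold change was 0.99, against 0.02 over all genes, and did not move with Notum at its bound. With a minimum value of 50, which can leave out members with low values, 7 rose. Notum and Axin2 passed the filter only through libraries with 3C, and other members with low values may have done so too. Members of this list and the later ones were chosen with earlier results of these data known. Their shares therefore describe the lists and are no test. Axin2, a scaffold that promotes beta-catenin destruction and is itself a Wnt target (ENSMUSG00000000142, chromosome 11, 108917828 to 108950783), had 483, 338 and 334 normalised counts in DOX 3C against 4.90, 10.8 and 8.79 in DOX, 43.2-fold higher (log2 fold change 5.43 ± 0.27, limma adjusted p = 2.58e-11). Tcf7, one of the TCF/LEF factors, had 120, 97 and 112 in DOX 3C and 23.3, 24 and 16.1 in DOX (2.34 ± 0.20 on the log2 scale). Twist1, a mesenchymal transcription factor, had 2128, 1581 and 1828 in DOX 3C and 590, 633 and 619 in DOX (1.58 ± 0.08). No DOX library reached the lowest DOX 3C library in any of these 3 genes, which were named for large changes or small p. Groups did not overlap for 57.6% of all genes.

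Other members of the Wnt list had few reads. Nkd1, an inhibitor that binds Dishevelled, had 47.5, 33.3 and 30.9 normalised counts in DOX 3C and 15.9, 13.2 and 11.7 in DOX (1.37 ± 0.26 on the log2 scale, limma adjusted p = 0.000251). Lgr5, the R-spondin receptor known from intestinal stem cells, had 22.5, 16.3 and 16.2 in DOX 3C and 6.13, 12 and 8.79 in DOX (0.98 ± 0.33, limma adjusted p = 0.0207). The call was lost without DOX replicate 1 or DOX 3C replicate 1, with a limma adjusted p of up to 0.0926. It was also lost with thinned reads (limma adjusted p = 0.342), with no filter on low values (limma adjusted p = 0.0672) and by DESeq2 (adjusted p = 0.0895). Lef1, another factor of the TCF/LEF family, overlapped between the groups, with 54.6, 28.1 and 57.1 in DOX 3C and 50.3, 46.8 and 43.9 in DOX, and was not called (adjusted p = 0.834). Sp5, a direct Wnt target that was too low to be tested, had 1.19, 3.70 and 6.18 in DOX 3C and no read in DOX.

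**Figure D2:**
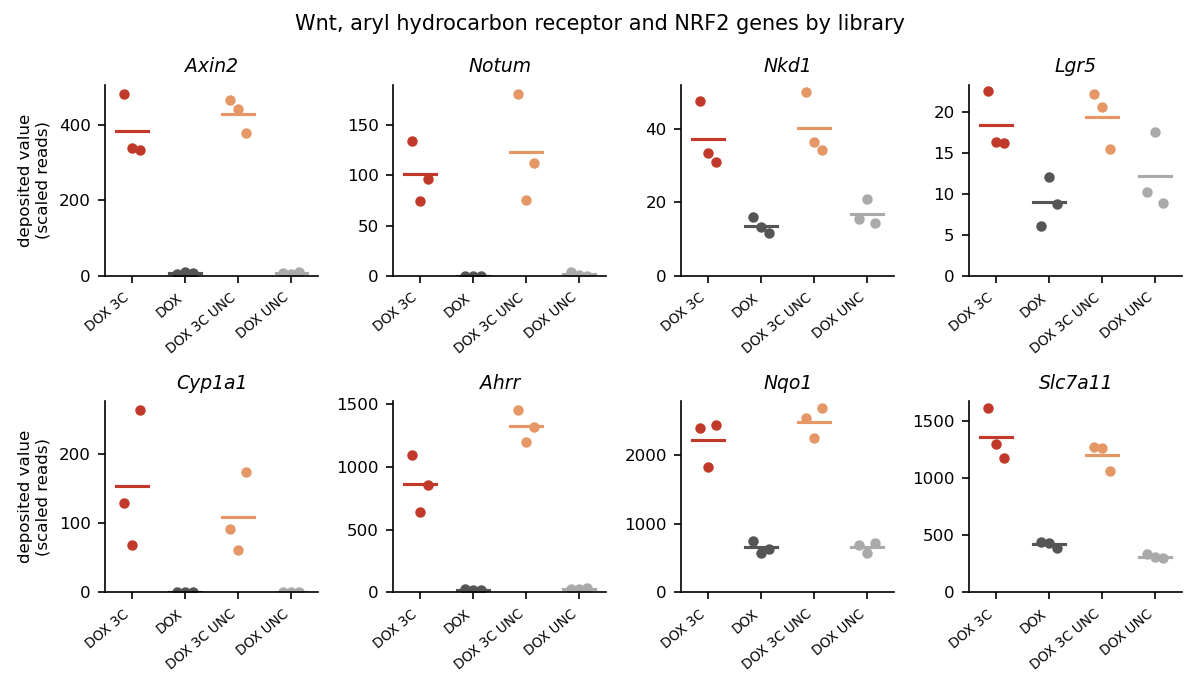
Deposited values (scaled reads, linear axis from 0) of 8 genes in each library, with DOX 3C, DOX, DOX 3C UNC and DOX UNC from left to right; points are libraries and bars the mean of 3. Axin2, Notum, Cyp1a1 and Ahrr are close to 0 in DOX and DOX UNC and high in each library with 3C, and Nqo1 and Slc7a11 are higher with 3C in each library, while the libraries of Lgr5 overlap with UNC.

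Of 10 genes of the beta-catenin destruction complex and GSK3 kinases, 1 rose and 5 fell, none by 2-fold. Ctnnb1, which encodes beta-catenin, had 14467, 13520 and 14308 normalised counts in DOX 3C and 18040, 17373 and 17201 in DOX (-0.32 ± 0.05 on the log2 scale). The scaffold genes Apc and Amer1 fell, at -0.32 ± 0.05 and -0.86 ± 0.08, and the casein kinase gene Csnk1d rose by 0.22 ± 0.05. Gsk3b, a target of CHIR99021, had 2339, 1922 and 1882 in DOX 3C and 2422, 2325 and 2464 in DOX (-0.24 ± 0.08, limma adjusted p = 0.0148), with 1 DOX 3C library inside the DOX range. The call was lost without DOX replicate 3 or DOX 3C replicate 2 or 3, and also without the mean-variance trend. Leaving out any one of these 3 libraries left 3 genes of the list with a decrease. Its paralog Gsk3a was not called (adjusted p = 0.345). Among 32 Wnt ligands, receptors and secreted inhibitors, 9 rose (28.1%) and 11 fell (34.4%), against 24.7% each way over all genes, with a median of -0.01. The 4 with the smallest p all fell, Lgr6 as given above. The ligand gene Wnt2 had 20.2, 11.8 and 13.1 in DOX 3C and 120, 115 and 71.7 in DOX (-2.69 ± 0.22), and the receptor genes Fzd4 and Lgr4 fell, at -1.73 ± 0.17 and -0.78 ± 0.06.

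Genes of the aryl hydrocarbon receptor (AHR), a ligand-activated factor that induces enzymes for foreign compounds, rose as a group. All 7 genes on the list were tested, Cyp1a1 through libraries with 3C alone. Of these, 6 rose (85.7%) and 1 fell (14.3%), against 24.7% each way over all genes. The median log2 fold change was 1.56, also with Cyp1a1 at its bound. The single decrease was lost without DOX replicate 1 or 3 or DOX 3C replicate 2 or 3. Ahr itself had 4279, 2663 and 3260 normalised counts in DOX 3C and 251, 192 and 225 in DOX, 15-fold higher (log2 fold change 3.91 ± 0.18, limma adjusted p = 6.07e-12). Ahrr, the repressor that AHR induces (ENSMUSG00000021575, chromosome 13, 74211118 to 74292331), had 1097, 639 and 852 in DOX 3C and 24.5, 15.6 and 17.6 in DOX, 42.4-fold higher (5.41 ± 0.18). Among the DOX 3C libraries replicate 2 was the lowest for Cyp1a1, Ahr and Ahrr. It was still above every DOX library, which the rule for the largest changes required of Cyp1a1 and Ahrr. Over all genes, 57.6% had groups that did not overlap. Nfe2l2, which encodes NRF2, the main activator of antioxidant genes, was on the same list and had 5194, 4745 and 4758 in DOX 3C and 2494, 2426 and 2442 in DOX (1.00 ± 0.05).

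Of 19 tested genes of NRF2 and oxidant defence, 13 rose and 4 fell (21.1%), where 24.7% of all genes moved each way, with a median of 0.66. Nqo1, a quinone reductase, had 2396, 1820 and 2431 normalised counts in DOX 3C and 754, 572 and 637 in DOX (1.76 ± 0.12 on the log2 scale, limma adjusted p = 8.89e-10). Slc7a11, the cystine transporter that feeds glutathione synthesis, had 1611, 1301 and 1173 in DOX 3C and 441, 434 and 385 in DOX (1.68 ± 0.10). Srxn1, which repairs oxidised peroxiredoxins, had 1319, 1146 and 1282 in DOX 3C and 580, 548 and 474 in DOX (1.23 ± 0.08). Xdh, the xanthine oxidoreductase of purine breakdown, was 14.4-fold higher, at 324, 279 and 302 in DOX 3C and 18.4, 22.8 and 19 in DOX (3.85 ± 0.14). These 4 were named for their small p, and their groups did not overlap, as was so for 57.6% of all genes.

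Start-site sequences were read for the Wnt, AHR, NRF2 and contractile lists to set the binding motif of each list's factor beside the genes that moved together. Motifs were searched on both strands of the 250 bases before each RefSeq start site (build GRCm38.p6, 27025 genes with an entry). The TCF/LEF motif CTTTGAT was in 3.72% of all promoters, in 2.7% of those of the 10525 tested genes with an entry, and in that of 1 of 9 tested Wnt genes with an entry, Tnfrsf19. The xenobiotic response element TNGCGTG was in 4.76% of all promoters, in 7.85% of those of tested genes and in 1 of 6 AHR genes, Ahrr. The antioxidant response element TGACNNNGC was in 11.5% of all promoters, in 13.9% of those of tested genes and in 4 of 14 NRF2 genes. These were Gclm, Prdx1, Sod1 and Txnrd1, of which Gclm and Txnrd1 are shown. The letters are a match only, and their absence elsewhere speaks of this window alone. Each sequence below is a stretch of 80 bases from that window on the strand of the gene, with the matched motif, in either orientation, in capitals: Tnfrsf19 at chr14:61038147-61038226 (minus strand), Ahrr at chr13:74292332-74292411 (minus), Gclm at chr3:122245387-122245466 (plus) and Txnrd1 at chr10:82859078-82859157 (plus).
Tnfrsf19: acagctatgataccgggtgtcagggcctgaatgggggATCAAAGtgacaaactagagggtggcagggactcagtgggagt
Ahrr: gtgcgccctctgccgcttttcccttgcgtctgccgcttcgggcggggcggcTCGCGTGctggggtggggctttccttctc
Gclm: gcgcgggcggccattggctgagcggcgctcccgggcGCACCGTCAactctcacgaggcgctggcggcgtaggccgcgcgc
Txnrd1: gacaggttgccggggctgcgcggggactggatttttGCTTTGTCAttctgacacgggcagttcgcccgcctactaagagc
In expression, Tnfrsf19 had 46.3, 32.6 and 52.5 normalised counts in DOX 3C and 12.3, 12 and 2.93 in DOX (2.32 ± 0.39 on the log2 scale). Gclm, a subunit of the enzyme that starts glutathione synthesis, rose by 0.81 ± 0.06, and Txnrd1, thioredoxin reductase, by 0.66 ± 0.06. These 3 were chosen for their motifs and not by the rule for named genes. Values of Prdx1 and Sod1 are not given here, and whether genes with a motif moved alike was not tested.

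TGF-beta response genes fell. Of 29 tested, 25 fell, 17 of them at least 2-fold, where 24.7% of all genes fell and 6.52% fell at least 2-fold. In the same list 1 rose (3 without DOX 3C replicate 2 or with the replicate block in limma), and the median log2 fold change was -1.45. Ccn2, the matricellular protein CTGF (ENSMUSG00000019997, chromosome 10, 24595442 to 24598683), had 87.8, 140 and 123 normalised counts in DOX 3C against 4691, 4546 and 4839 in DOX, 40.5-fold lower (log2 fold change -5.34 ± 0.14, limma adjusted p = 4.24e-15). Lox, the lysyl oxidase that cross-links collagen and elastin, had 416, 310 and 384 in DOX 3C and 10548, 11262 and 12293 in DOX (-4.94 ± 0.12 on the log2 scale). Timp3, an inhibitor of metalloproteinases, had 470, 444 and 435 in DOX 3C and 4261, 5046 and 4747 in DOX (-3.38 ± 0.07). In each of these genes, named for large changes or small p, the DOX 3C libraries lay far below the lowest DOX library. Groups did not overlap for 57.6% of all genes.

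Of the same list, Skil, a SMAD co-repressor and direct target, had 516, 509 and 517 normalised counts in DOX 3C and 2782, 2957 and 3063 in DOX (-2.51 ± 0.07 on the log2 scale, limma adjusted p = 4.24e-15). Smad7, the inhibitory SMAD, had 321, 325 and 279 in DOX 3C and 772, 907 and 896 in DOX (-1.47 ± 0.09). Of 20 tested ligands, receptors, latency proteins and SMADs, 9 fell (45%) and 2 rose (10%), against 24.7% each way over all genes, with a median of -0.10. Tgfbr1, which encodes the kinase that the inhibitor blocks, had 2175, 2058 and 2081 in DOX 3C and 3328, 3233 and 3324 in DOX (-0.65 ± 0.06). The ligand gene Tgfb3 and the type I receptor genes Acvr1 and Acvrl1 fell, at -1.14 ± 0.07, -1.98 ± 0.09 and -1.91 ± 0.13, while Tgfbr3, the co-receptor betaglycan, was 4.76-fold higher, at 1341, 952 and 1031 in DOX 3C and 314, 205 and 187 in DOX.

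**Figure D3:**
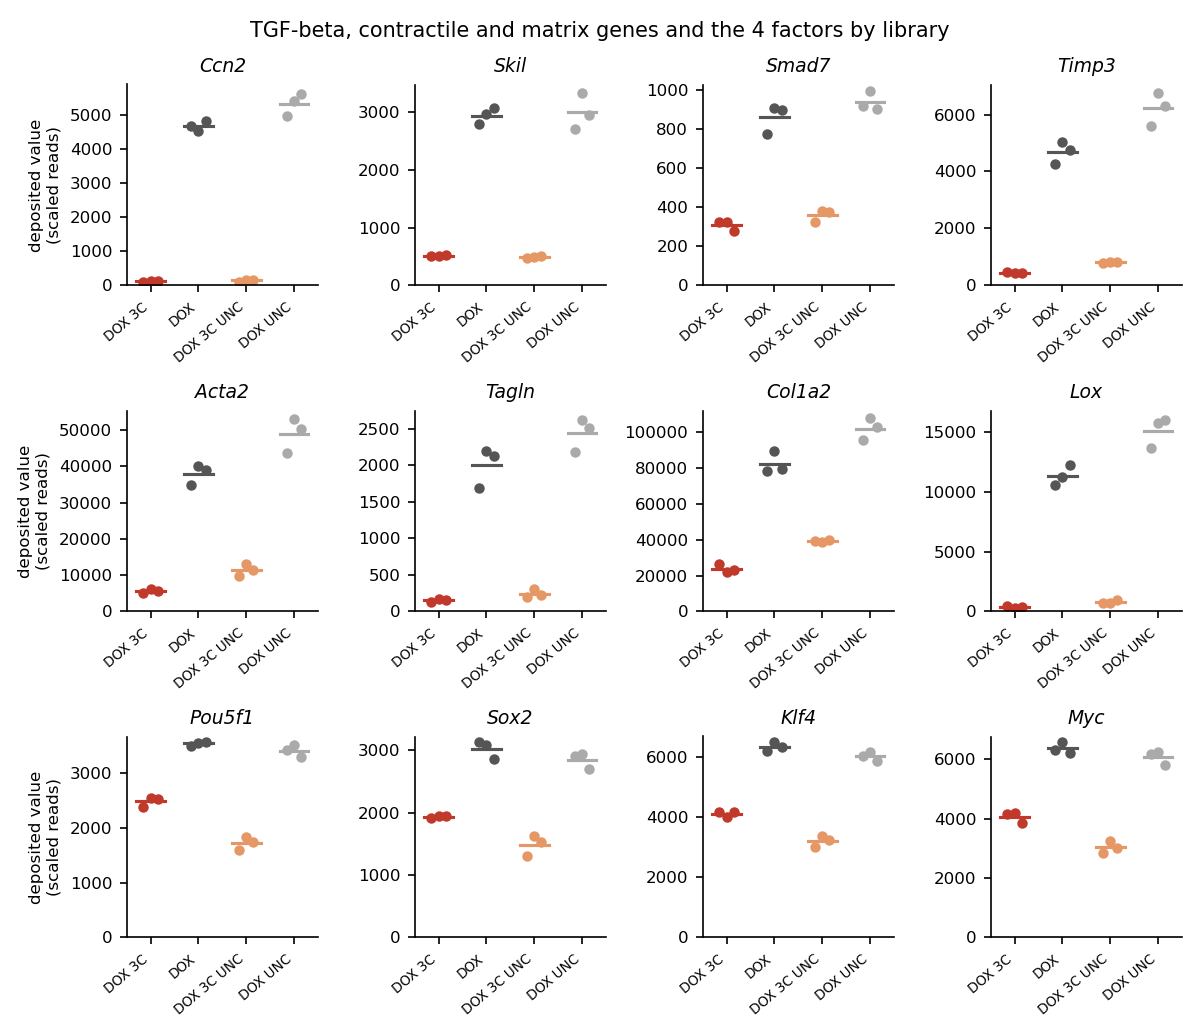
Deposited values (scaled reads, linear axis from 0) of 12 genes in each library, with DOX 3C, DOX, DOX 3C UNC and DOX UNC from left to right; points are libraries and bars the mean of 3. Ccn2, Skil, Smad7, Timp3, Acta2, Tagln, Col1a2, Lox and the 4 factors are lower in each library with 3C than in each matching library without it.

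Collagen genes fell with their modifying enzymes. Of 11 fibrillar collagen chains, 8 fell, 7 of them at least 2-fold, and 1 rose, where 24.7% of all genes fell and 6.52% fell at least 2-fold, with a median log2 fold change of -1.27. Col1a2, a chain of type I collagen (ENSMUSG00000029661, chromosome 6, 4505618 to 4541543), had 26213, 22238 and 23284 normalised counts in DOX 3C and 78503, 89365 and 79605 in DOX (-1.79 ± 0.07 on the log2 scale, limma adjusted p = 1.13e-12), and its share of all reads was 0.173, 0.149 and 0.156% in DOX 3C against 0.506, 0.577 and 0.512% in DOX. Its partner chain Col1a1 fell less, with 11531, 8922 and 9449 in DOX 3C and 20402, 21257 and 22532 in DOX (-1.11 ± 0.08). Col5a1 and Col5a2, chains of the type V collagen that nucleates fibrils, fell, at -1.81 ± 0.06 and -1.27 ± 0.05, and Col11a1, known from cartilage, at -3.68 ± 0.19. Among 18 network, beaded and FACIT collagen genes 12 fell and 2 rose, with Col6a3 at -1.76 ± 0.07, the basement membrane chain Col4a1 at -1.36 ± 0.09, Col16a1 at -1.22 ± 0.09 and Col15a1 at -1.05 ± 0.08.

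Of 24 collagen hydroxylases, chaperones and cross-linking enzymes, some of which use ascorbate, 15 fell (62.5%) and 4 rose (16.7%), with a median of -0.62. Over all genes 24.7% moved each way. P4ha1, a prolyl hydroxylase subunit, had 1378, 1289 and 1364 normalised counts in DOX 3C and 2390, 2467 and 2318 in DOX (-0.83 ± 0.06 on the log2 scale). The cross-linking enzyme gene Loxl2 had 294, 315 and 251 in DOX 3C and 1909, 2552 and 2630 in DOX (-3.03 ± 0.14), and P3h4, part of a collagen lysine hydroxylation complex, fell, at -0.72 ± 0.06. Other matrix genes did the same: 18 of 29 fell (62.1%) and 2 rose (6.9%), with a median of -0.84. Tnc, tenascin-C, had 995, 1272 and 1093 in DOX 3C and 16994, 17841 and 19359 in DOX (-4.02 ± 0.10, limma adjusted p = 2.69e-15). The fibulin genes Fbln2 and Fbln5 fell, at -2.94 ± 0.10 and -2.08 ± 0.08 and the proteoglycan gene Bgn at -2.36 ± 0.10. Metalloproteinases and TIMPs were divided, with 6 of 15 higher (40%) and 5 lower (33.3%). Mmp11 and Adamts12 fell, at -2.62 ± 0.10 and -1.59 ± 0.07, and Mmp19 and the aggrecanase gene Adamts4 rose by 1.73 ± 0.20 and 0.78 ± 0.09.

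The contractile programme went down almost as a whole. Of 25 smooth muscle genes and targets of serum response factor (SRF), 22 fell, 13 of them at least 2-fold, where 24.7% of all genes fell and 6.52% fell at least 2-fold, and the other 3 were not called; the median log2 fold change was -1.06. Acta2, smooth muscle alpha-actin (ENSMUSG00000035783, chromosome 19, 34240336 to 34255585), had 5068, 6217 and 5657 normalised counts in DOX 3C against 34828, 40182 and 38971 in DOX, 6.74-fold lower (log2 fold change -2.75 ± 0.10, limma adjusted p = 2.34e-13). Tagln, the actin-binding transgelin, had 133, 167 and 154 in DOX 3C and 1686, 2195 and 2126 in DOX (-3.71 ± 0.14 on the log2 scale). Myl9, a regulatory light chain of myosin, had 266, 354 and 327 in DOX 3C and 2030, 2479 and 2381 in DOX (-2.87 ± 0.12), and Cald1, caldesmon, fell, at -1.86 ± 0.07. Replicate 1 of each group was the lowest of its group for Acta2, Tagln, Myl9 and Cald1, a difference within groups that was small beside that between them.

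The CArG box, which SRF binds, was found in the 250 bases before the start site of 6 of 21 tested genes of this list with a RefSeq entry, in 1.62% of all promoters and in 1.46% of those of tested genes. The genes were Actg1, Cnn2, Fhl2, Myl9, Srf and Vcl. The 80-base stretches of Srf at chr17:46556180-46556259 (minus strand), Vcl at chr14:20929148-20929227 (plus) and Myl9 at chr2:156775268-156775347 (plus), in build GRCm38.p6, are shown, with the boxes in capitals, because their genes fell by different amounts.
Srf: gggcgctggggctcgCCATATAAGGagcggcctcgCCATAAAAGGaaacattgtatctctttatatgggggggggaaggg
Vcl: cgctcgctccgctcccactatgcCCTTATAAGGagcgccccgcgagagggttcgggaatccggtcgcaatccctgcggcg
Myl9: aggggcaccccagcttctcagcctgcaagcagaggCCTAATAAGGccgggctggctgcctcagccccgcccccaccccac
Srf itself had 1120, 1309 and 1286 normalised counts in DOX 3C and 1447, 1502 and 1419 in DOX, with a log2 fold change of -0.24 ± 0.06. Vcl, vinculin of focal adhesions, had 3952, 4126 and 4099 in DOX 3C and 5672, 6085 and 6610 in DOX (-0.59 ± 0.06 on the log2 scale). Both changes were smaller than that of Myl9. Srf and Vcl were shown for their motifs and lie outside the rule for named genes.

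Receptors that hold cells to the matrix fell too, with 10 of 16 integrin genes lower (62.5%) and 1 higher (6.25%), and a median of -0.92. Over all genes 24.7% fell and 24.7% rose. Itgb1, the common beta chain, had 11470, 12447 and 11572 normalised counts in DOX 3C and 19876, 21069 and 21337 in DOX (-0.81 ± 0.06 on the log2 scale). Itga4, Itgb3 and Itgb5 fell, at -2.81 ± 0.18, -2.0 ± 0.09 and -1.32 ± 0.06. Of 7 genes of caveolae, the small pits of the plasma membrane, 4 fell (57.1%) and 2 rose (28.6%). Cavin3, Cavin1 and Cav2 fell, at -0.74 ± 0.05, -0.57 ± 0.06 and -0.55 ± 0.09, and Cavin2 rose by 1.09 ± 0.12.

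**Figure D4:**
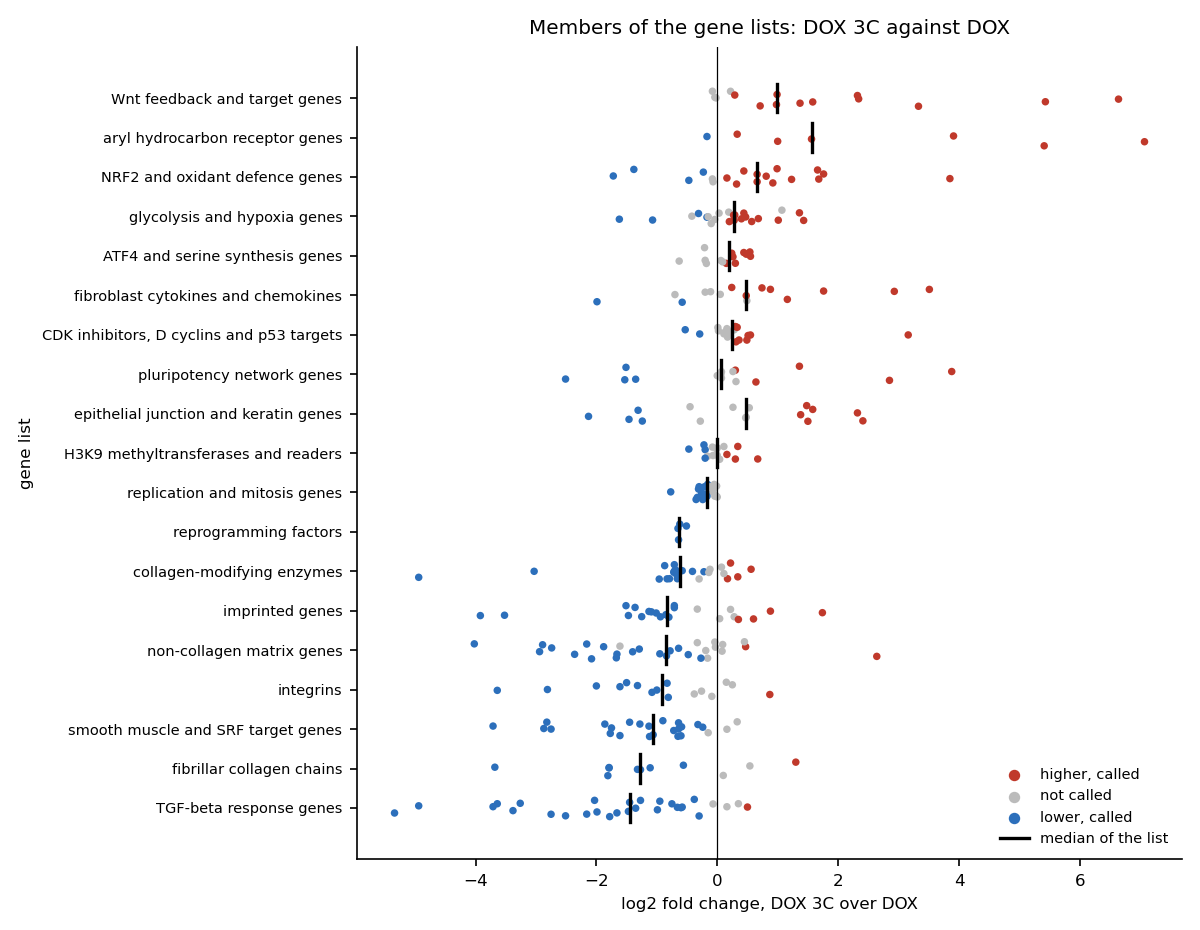
Log2 fold change of DOX 3C over DOX (horizontal axis) for the tested members of 19 gene lists (vertical axis); each point is a gene, red where it rose, blue where it fell and grey where it was not called, and black bars are list medians. Medians run from -1.45 for TGF-beta response genes to 1.56 for aryl hydrocarbon receptor genes, and lists such as those of H3K9 enzymes and pluripotency genes lie around 0.

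Fibroblast identity genes were divided. Of 10 fibroblast markers, 4 fell (40%), 1 rose (10%) and 5 were not called, against 24.7% each way over all genes. Their summed level was 116568 to 130472 normalised counts in DOX 3C and 192287 to 207014 in DOX. Thy1, a fibroblast surface antigen that is lost in reprogramming, had 2067, 1673 and 2149 in DOX 3C and 2154, 2033 and 2289 in DOX and was not called (limma adjusted p = 0.162); with the replicate block its adjusted p was 0.0237. The markers that fell were 3 collagen chains and Dcn, decorin, which had 59.3, 52.6 and 51.7 in DOX 3C and 213, 261 and 149 in DOX (-1.88 ± 0.18 on the log2 scale). Fap, a protease of activated fibroblasts, rose by 3.31 ± 0.34, to 40.3, 37 and 47.9 normalised counts in DOX 3C against 2.45, 4.80 and 2.93 in DOX. Fap passed the filter on low values only through libraries with 3C. Of 15 transcription factors and cadherins of epithelial-mesenchymal transition, 3 rose (20%) and 5 fell (33.3%), shares not far from those of all genes. Twist1 rose as given above, Zeb2 rose by 0.57 ± 0.07, and Zeb1 and the calcium-binding S100a4 fell, at -0.50 ± 0.06 and -1.36 ± 0.08.

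Epithelial genes were divided as well, with 6 of 16 tested higher (37.5%), 4 lower (25%) and a median of 0.48, where 24.7% of all genes rose and 24.7% fell. With a minimum value of 50, which can leave out members with low values, 3 were higher and 2 lower. Cdh1, which encodes E-cadherin, had 240, 120 and 234 normalised counts in DOX 3C and 72.3, 69.7 and 73.2 in DOX (1.38 ± 0.21 on the log2 scale, limma adjusted p = 3.12e-05). Epcam, an epithelial adhesion molecule, had 16.6, 14.1 and 13.9 in DOX 3C and 4.90, 1.20 and 1.46 in DOX (2.32 ± 0.52). It passed the filter on low values through groups other than DOX. The desmosomal plaque gene Dsp had 193, 239 and 344 in DOX 3C and 78.5, 80.5 and 113 in DOX (1.48 ± 0.20), and the membrane protease gene St14 rose by 1.58 ± 0.22. On the other side, Jup, plakoglobin, had 896, 968 and 953 in DOX 3C and 2538, 2635 and 2587 in DOX (-1.46 ± 0.07), and Krt19, a keratin of simple epithelia, fell, at -1.31 ± 0.12. The summed level of all 26 genes of the list was 2651 to 3087 normalised counts in DOX 3C and 4502 to 4924 in DOX, the other way from the median.

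The pluripotency network was mostly silent in both groups. Of 34 genes on the list 15 were tested, 5 rose (33.3%) and 4 fell (26.7%), against 24.7% each way over all genes, with a median of 0.07. With no filter on low values, which lets more members be tested, 9 rose. The summed level of the 34 genes was 3508 to 4059 normalised counts in DOX 3C and 4785 to 5206 in DOX. Nanog had 4.75, 2.96 and 2.32 normalised counts in DOX 3C and 2.45, 7.21 and 5.86 in DOX, too few to be tested, and Dppa5a, Dppa4 and Utf1 had no read in any of the 6 libraries. Tfcp2l1, a factor of naive pluripotency that lies downstream of GSK3 inhibition in embryonic stem cells (ENSMUSG00000026380, chromosome 1, 118627923 to 118685168), had 713, 592 and 407 in DOX 3C and 58.9, 26.4 and 32.2 in DOX, 14.7-fold higher (log2 fold change 3.88 ± 0.25, limma adjusted p = 5.15e-10). L1td1, an RNA-binding protein of pluripotent cells, had 890, 1130 and 925 in DOX 3C and 2558, 2599 and 2312 in DOX (-1.35 ± 0.09), and the Polycomb gene Cbx7 had 72.4, 94.1 and 105 in DOX 3C and 256, 270 and 253 in DOX (-1.53 ± 0.14). Alpl, the alkaline phosphatase used to stain colonies and also a bone enzyme, fell, at -2.51 ± 0.18.

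Enzymes that depend on ascorbate, and chromatin modifiers more widely, changed by small amounts. Of 25 histone and nucleic acid demethylases and hypoxia hydroxylases, 13 fell (52%) and 3 rose (12%), against 24.7% each way over all genes. None changed by 2-fold, and the median was -0.23. Without DOX replicate 1 or 3 or DOX 3C replicate 1, 1 rose. Kdm3a, an H3K9 demethylase, had 1112, 1100 and 1078 normalised counts in DOX 3C and 1458, 1438 and 1510 in DOX (-0.42 ± 0.06 on the log2 scale, limma adjusted p = 1.97e-05). Its relatives Kdm3b and Jmjd1c fell, at -0.40 ± 0.05 and -0.64 ± 0.06, and Kdm5b, Kdm2a and Kdm4c at -0.45 ± 0.06, -0.34 ± 0.05 and -0.26 ± 0.07. Tet1 and Tet2, which oxidise 5-methylcytosine, were not called (adjusted p = 0.766 and 0.317), and neither was the ascorbate transporter gene Slc23a2 (adjusted p = 0.0703), which had 730, 699 and 667 normalised counts in DOX 3C and 662, 653 and 548 in DOX; without DOX replicate 1 its adjusted p was 0.0421.

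Among 16 H3K9 methyltransferases and readers 4 rose and 4 fell (25% each way, against 24.7% over all genes), with a median of -0.01. Ehmt1 and Ehmt2, which encode GLP and G9a, overlapped between the groups and were not called: Ehmt1 had 1912, 1907 and 1862 normalised counts in DOX 3C and 1965, 1905 and 1860 in DOX (adjusted p = 0.867), and Ehmt2 had 4147, 4353 and 4493 in DOX 3C and 4131, 4528 and 4028 in DOX (adjusted p = 0.604). Atf7ip, a partner of SETDB1, rose by 0.67 ± 0.06, Suv39h1 and Suv39h2 rose by 0.30 ± 0.06 and 0.34 ± 0.07, and Cbx5, which encodes HP1 alpha, fell, at -0.47 ± 0.06. Of 9 tested genes of DNA methylation and base excision, 3 fell (1 without DOX replicate 1) and 1, Mbd2, rose. Dnmt3a had 917, 897 and 893 in DOX 3C and 1243, 1130 and 1234 in DOX (-0.41 ± 0.06). Dnmt1 (-0.14 ± 0.05) lost its call without DOX replicate 1 or DOX 3C replicate 1 or 3, or with no filter on low values, with a limma adjusted p of up to 0.111. Mbd1 (-0.21 ± 0.07) lost it without DOX replicate 1 or DOX 3C replicate 1, with one of up to 0.116, and Mbd2 (0.15 ± 0.06) without any single library other than DOX 3C replicate 3, with one of up to 0.191. Mbd2 was also not called by edgeR or DESeq2, with thinned reads, other scaling or no filter on low values, or without the mean-variance trend.

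Of 24 replication and mitosis genes, 14 fell, none by 2-fold, where 24.7% of all genes fell, and the other 10 were not called, with a median of -0.17. Mki67, the proliferation marker Ki-67, had 8662, 9474 and 8789 normalised counts in DOX 3C and 16283, 13466 and 16261 in DOX (-0.77 ± 0.09 on the log2 scale). The helicase gene Mcm6, the anaphase activator Cdc20 and the checkpoint kinase gene Bub1 fell, at -0.35 ± 0.05, -0.33 ± 0.05 and -0.31 ± 0.05. Of 18 CDK inhibitors, D cyclins and p53 targets, 8 rose (44.4%) and 2 fell (11.1%), against 24.7% each way over all genes, with a median of 0.25. Cdkn1a, the inhibitor p21, had 3360, 3806 and 3566 in DOX 3C and 2297, 2694 and 2677 in DOX (0.49 ± 0.09), and the p53 targets Sesn2 and Trp53inp1 rose by 0.55 ± 0.06 and 0.51 ± 0.08. Gdf15, a stress-induced cytokine, had 412, 453 and 509 in DOX 3C and 46.6, 44.4 and 61.5 in DOX, 8.91-fold higher (3.16 ± 0.19).

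Immediate early genes went both ways, 6 of 16 higher (37.5%) and 7 lower (43.8%), against 24.7% each way over all genes. Egr2 had 17.8, 13.3 and 17 normalised counts in DOX 3C and 257, 256 and 170 in DOX, 13.3-fold lower (-3.73 ± 0.28 on the log2 scale). Dusp6, a phosphatase induced by ERK signalling, had 561, 650 and 559 in DOX 3C and 2027, 2177 and 1728 in DOX (-1.74 ± 0.11), and Fos fell, at -1.22 ± 0.09. Ier3, by contrast, had 712, 647 and 757 in DOX 3C and 212, 162 and 208 in DOX (1.86 ± 0.11).

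In metabolism, 12 of 24 glycolysis and hypoxia genes rose (50%) and 4 fell (16.7%), against 24.7% each way over all genes, with a median of 0.27. Pfkp, the platelet-type phosphofructokinase, had 4088, 4328 and 4180 normalised counts in DOX 3C and 1661, 1610 and 1622 in DOX (1.36 ± 0.05 on the log2 scale, limma adjusted p = 1.13e-12). Aldoa rose by 0.47 ± 0.05 and Gapdh by 1.01 ± 0.09, the second being uncertain since reads of its processed pseudogenes may not have been counted. Slc2a3, the glucose transporter GLUT3, had 756, 858 and 879 in DOX 3C and 2527, 2910 and 2243 in DOX (-1.62 ± 0.12). Of 14 ATF4 and serine synthesis genes 8 rose, none by 2-fold, among them Psph at 0.54 ± 0.10, Shmt2 at 0.48 ± 0.07 and Phgdh at 0.44 ± 0.09; without DOX replicate 3 or DOX 3C replicate 2 the number was 5, and 2 fell without DOX 3C replicate 2 or with the replicate block. Of 20 cholesterol synthesis genes 3 rose (15%) and 6 fell (30%), none by 2-fold, against 24.7% each way over all genes. Those that fell included Hmgcs1 at -0.63 ± 0.07, Insig1 at -0.59 ± 0.08 and Msmo1 at -0.33 ± 0.08.

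Genes of retinoid transport and synthesis were divided. Dhrs3, which reduces retinaldehyde and is induced by retinoic acid, had 35.6, 33.3 and 23.2 normalised counts in DOX 3C and 961, 1054 and 892 in DOX, 31-fold lower (-4.96 ± 0.15 on the log2 scale, limma adjusted p = 2.16e-14). Crabp2, which carries retinoic acid to its receptors, fell, at -1.66 ± 0.13, and the enzymes Rdh10 and Aldh1a3 that make it fell, at -0.98 ± 0.10 and -1.89 ± 0.27. Of the 13 tested genes of the list, 6 fell (46.2%) and 5 rose (38.5%), against 24.7% each way over all genes. With a minimum value of 50, which can leave out members with low values, 3 rose. The genes named here were chosen for their small p and all fell. Over the list, log2 fold changes ran from -4.96 to 2.67, with a median of 0.07.

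BMP and activin genes showed no common direction, 9 of 27 higher and 9 lower (33.3% each way, against 24.7% over all genes). Inhbb, the activin B subunit, had 695, 538 and 505 normalised counts in DOX 3C and 38, 49.2 and 27.8 in DOX, 15-fold higher (3.91 ± 0.21 on the log2 scale). Bmp6 rose by 1.36 ± 0.12. Id1 and Id3, targets of BMP signalling, rose, with 3284, 3447 and 3622 in DOX 3C and 2113, 2117 and 2155 in DOX for Id1 (0.70 ± 0.07) and a log2 fold change of 0.64 ± 0.07 for Id3. Fstl1, a secreted follistatin-like protein, had 15315, 16451 and 15848 in DOX 3C and 45729, 47081 and 44342 in DOX (-1.53 ± 0.05).

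Growth factor axes fell in part. Of 14 genes of the insulin-like growth factor (IGF) axis 8 fell (57.1%), 7 of them at least 2-fold, and 2 rose (14.3%). Over all genes 24.7% moved each way and 6.52% fell at least 2-fold. Igfbp3, which binds IGFs in serum, had 785, 945 and 700 normalised counts in DOX 3C and 14830, 13598 and 12714 in DOX, 17-fold lower (-4.09 ± 0.08 on the log2 scale, limma adjusted p = 2.63e-16). H19, the imprinted non-coding RNA beside Igf2, had 1139, 1078 and 649 in DOX 3C and 19357, 15073 and 9440 in DOX (-3.92 ± 0.23), and in both groups replicate 3 was the lowest. Igfbp7 and the adaptor gene Irs2 fell, at -2.10 ± 0.08 and -1.05 ± 0.06. Among imprinted genes as a list 14 of 22 fell and 4 rose, with a median of -0.82: Ndn fell, at -1.51 ± 0.06, Grb10, an adaptor that restrains insulin signalling, at -0.94 ± 0.05, and Gnas at -0.71 ± 0.06. Of 19 PDGF, FGF, VEGF and HGF genes, 8 fell and 4 rose (2 without DOX replicate 1 or 2 or DOX 3C replicate 1): Pdgfb, Pdgfd and Fgf2 fell, at -3.82 ± 0.39, -1.79 ± 0.17 and -1.38 ± 0.10, and the HGF receptor gene Met at -0.74 ± 0.08.

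Of 15 fibroblast cytokines and chemokines 8 rose and 2 fell, where 24.7% of all genes moved each way, with a median of 0.48. With a minimum value of 50, which can leave out members with low values, 1 fell. The alarmin gene Il33 had 208, 163 and 210 normalised counts in DOX 3C and 6.13, 25.2 and 24.9 in DOX (3.51 ± 0.33 on the log2 scale). Ptgs2, which encodes cyclooxygenase 2, had 1204, 1186 and 1404 in DOX 3C and 394, 316 and 410 in DOX (1.76 ± 0.11), and Nfkbia and Cxcl5 rose by 0.88 ± 0.06 and 1.16 ± 0.09. Among 9 tested interferon-stimulated genes 3 rose (33.3%) and 1 fell (11.1%), against 24.7% each way over all genes, with Gbp2 at 1.30 ± 0.21, Bst2 at 1.20 ± 0.14, Irf9 at 0.63 ± 0.12 and Ddx58 at -0.49 ± 0.09. Of 8 adipocyte genes 4 rose, namely Pparg by 1.77 ± 0.19, Cebpb by 1.69 ± 0.12, Cd36 by 1.28 ± 0.36 and Cebpd by 0.60 ± 0.07, and 1 fell; with the replicate block in limma, 7 rose. In bone and cartilage genes 6 of 13 fell, among them the Wnt inhibitor gene Sost at -2.85 ± 0.20 and Tnmd, tenomodulin, at -2.12 ± 0.21, and 2 rose, among them Acan, aggrecan, by 1.88 ± 0.14 (1 gene without DOX replicate 1 or 2 or DOX 3C replicate 2 or 3).

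Some markers of other cell types were low or uneven. The 10 macrophage markers summed to 166 to 484 normalised counts in DOX 3C and 134 to 476 in DOX; none was called by limma, edgeR or DESeq2, none had an unadjusted p below 0.05, and replicate 2 was highest in both groups. With the replicate block, 1 rose and 1 fell by limma, and 1 rose and 2 fell by edgeR. Erythroid markers summed to 2091 normalised counts in DOX 3C replicate 1, against 139 and 186 in the other 2 DOX 3C libraries and 123 to 175 in DOX. Of 5 tested, 2 rose (40%), where 24.7% of all genes did. They were Alas2, at 58.1, 25.2 and 28.6 in DOX 3C and 9.81, 2.40 and 14.6 in DOX, and Hba-a1, at 164, 15.6 and 17 in DOX 3C and 4.90, 16.8 and 10.2 in DOX (limma adjusted p = 0.0323). A single one rose without DOX replicate 1 or 3 or DOX 3C replicate 1, or without the mean-variance trend. By edgeR, or without DOX 3C replicate 2, 4 rose, and with the replicate block in edgeR 5 rose. Reads of Hba-a1 and its near copy Hba-a2 may have been split in counting. Both endothelial markers tested fell, where 24.7% of all genes did. Cdh5 fell to 3.56, 0.00 and 0.00 normalised counts in DOX 3C against 11, 8.41 and 11.7 in DOX, and Tek, an angiopoietin receptor, fell at -0.60 ± 0.09. Cdh5 passed the filter on low values only through groups other than DOX 3C, so its decrease is no independent result. Endothelial markers summed to 1654 to 1825 normalised counts in DOX 3C and 2483 to 2816 in DOX. The sums of neural markers were 1395 to 1881 in DOX 3C and 2870 to 3065 in DOX. All 3 neural markers tested fell as well, Map2 at -1.63 ± 0.09, Tubb3 at -0.78 ± 0.14 and Stmn2 at -0.74 ± 0.11, and Sfn was the only keratinocyte marker called, at -1.32 ± 0.25. Of 4 skeletal muscle genes Acta1 fell, at -2.70 ± 0.21. The part of such cells in the results was not tested.

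In the presence of UNC most genes that 3C had changed moved the same way. The contrast takes its means from 6 other libraries, while the filter and the estimate of the spread came from all 12. DOX 3C UNC differed from DOX UNC in 7656 of 16138 genes (47.4%), 3861 higher and 3795 lower. Of the 7978 genes called without UNC, 6127 were called in the same direction with UNC, which is 76.8% of the first set and 80% of the second, and 7 were called in the opposite direction. Among the 1730 genes that had changed at least 2-fold without UNC, 1507 (87.1%) were called the same way and 1701 had the same sign. Axin2 had 466, 442 and 379 normalised counts in DOX 3C UNC and 8.54, 4.38 and 10.7 in DOX UNC, and Ccn2 had 112, 159 and 170 in DOX 3C UNC and 4989, 5422 and 5631 in DOX UNC. Cyp1a1 again had no read in the DOX UNC libraries and 90.9, 60.6 and 173 normalised counts in DOX 3C UNC. For the 4 factors the log2 fold change with UNC was -0.98 ± 0.05 for Pou5f1, -0.94 ± 0.07 for Sox2, -0.91 ± 0.05 for Klf4 and -1.01 ± 0.05 for Myc. Some genes named above passed the threshold in one comparison and missed it in the other. Dsp had 119, 126 and 172 in DOX 3C UNC and 109, 138 and 107 in DOX UNC (adjusted p = 0.377), while Thy1 had a log2 fold change of 0.35 ± 0.08 with UNC (limma adjusted p = 0.00173).

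The difference between both effects was itself tested, as an interaction in the same fit. It was called for 10 genes (0.0620%), for 7 of them with a higher and for 3 with a lower 3C effect in the presence of UNC. Dsp and Thy1 were not among them. Pou5f1 was: it had 1594, 1839 and 1739 normalised counts in DOX 3C UNC and 3421, 3507 and 3286 in DOX UNC, and its decrease was deeper with UNC, with a difference of log2 effects of -0.47 ± 0.08 (limma adjusted p = 0.023). The other 9 are given after the report. With the replicate number as a block, the difference was called for 413 genes by limma and for 479 by edgeR. Leaving out 1 library gave between 0 genes, without DOX replicate 2, and 70, without DOX 3C replicate 1.

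**Figure D5:**
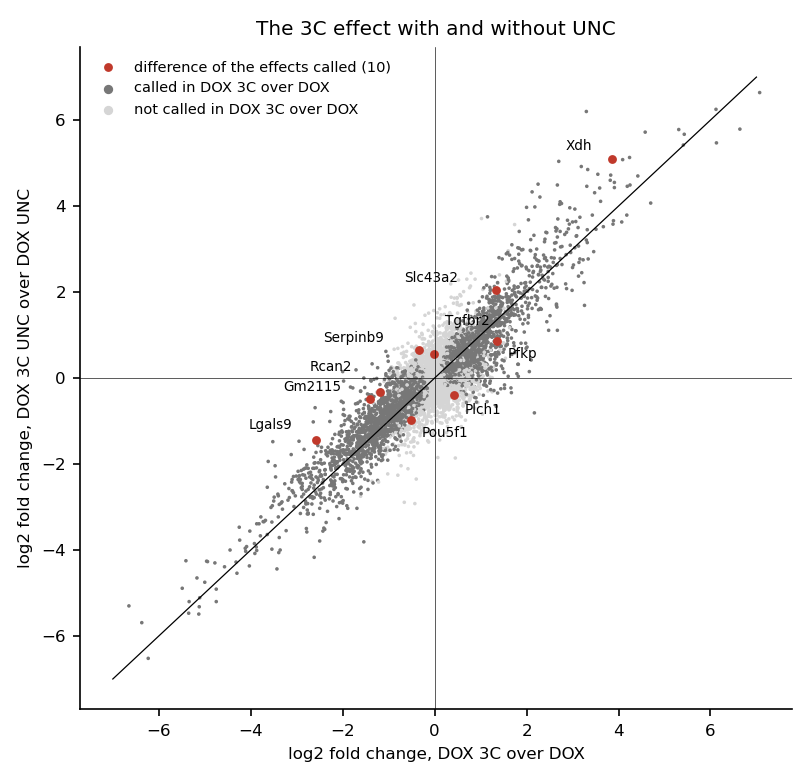
Log2 fold change of DOX 3C UNC over DOX UNC (vertical axis) against that of DOX 3C over DOX (horizontal axis) for the 16138 genes tested, with the line of equal effects; dark points were called in DOX 3C over DOX, pale points were not, and the 10 red points are the genes whose difference of effects was called. Of the called genes 97.3% had the same sign in both comparisons, and of the red points Plch1, Serpinb9 and, close to the vertical axis, Tgfbr2 have opposite signs in both comparisons.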

How the data were processed

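RNA of mouse embryonic fibroblasts in 4 media was analysed in 12 libraries, 3 per group, with 10616764 to 20211641 reads in genes. Libraries were made with TruSeq stranded total RNA and RiboZero Gold, per the labels' protocols. TopHat2 2.1.0, SAMtools 1.8, HTSeq 0.5.4p3, DESeq (no version given) and build mm10 are named per the submitters' processing notes; whether counting used strand is not given in the sources used here, so reads of genes and overlapping antisense genes cannot be told apart. The deposited signal values are read counts that the authors had divided by 1 factor per library, and all of them came out as whole reads within 0.01 when that factor was undone. A further 2 columns matched no sample and were not used. Gene positions were taken by symbol from RefSeq GRCm38.p6.

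Values were tested as log2(value + 1) with limma 3.58.1 in R 4.3.3, all 12 libraries in 1 fit with a mean-variance trend, over genes that reached a value of 10 in 3 or more libraries. P-values were adjusted over all genes by Benjamini-Hochberg, and an adjusted p below 0.05 was a call. Alternatives were edgeR 4.0.16 and DESeq2 1.42.0 on the recovered reads, other pseudocounts, filters and scaling, thinned reads, a replicate block, and leaving out each library. The code was tested on simulated counts from independent libraries, with few changed genes and the same spread for every gene. That setting is unlike these data and does not test pairing. Replicate numbers come from the labels. Same-numbered libraries deviated together, with correlations of 0.11, 0.16 and 0.13 between DOX 3C and DOX and 0.19, 0.21 and 0.15 between DOX 3C UNC and DOX UNC. All differently numbered pairs were below 0, in part because deviations within a group sum to 0. Libraries of the same number may therefore be paired, which the labels do not state. The fit reported has no replicate term, and the fit with one is an alternative, given beside a result where it changes the call. The count of genes whose 3C effect differed with UNC depends strongly on that choice. Replicates differed by more than sampling noise. Counting intervals cover counting error only.

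Named genes were the 12 largest changes each way that were called, did not overlap and averaged at least 50 in the higher group, then the 4 called members of each of 45 lists with the smallest p, and fixed genes of the targeted pathways. Members and lists were chosen with earlier results of these data known.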

Additional observations from a re-analysis of the deposited data

Results flagged for a closer look

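For 10 genes the effect of 3C differed between cells with and without UNC by the interaction term of the limma fit, and each difference below is the log2 effect with UNC minus that without, with its standard error. Xdh had 813, 638 and 688 normalised counts in DOX 3C UNC and 17.9, 19.7 and 21.4 in DOX UNC, a difference of effects of 1.26 ± 0.20 (limma adjusted p = 0.0197). Its increase was larger with UNC. The same held for Slc43a2, an amino acid transporter gene, at 0.70 ± 0.12 (limma adjusted p = 0.0372), while Pfkp rose less with UNC, at -0.51 ± 0.08 (limma adjusted p = 0.0196).

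Lgals9, which encodes galectin-9, fell in both comparisons and less with UNC, at 1.16 ± 0.16 (limma adjusted p = 0.0113). Rcan2, a regulator of calcineurin, and the predicted gene Gm2115 did likewise, at 0.86 ± 0.15 and 0.91 ± 0.15 (limma adjusted p = 0.0321 and 0.023). Pou5f1 fell more with UNC, at -0.47 ± 0.08 (limma adjusted p = 0.023). Tgfbr2, the type II TGF-beta receptor, had 2641, 2338 and 2434 normalised counts in DOX 3C UNC and 1664, 1660 and 1732 in DOX UNC, with 1736, 1506 and 1540 in DOX 3C and 1611, 1691 and 1495 in DOX, a difference of 0.56 ± 0.09 (limma adjusted p = 0.023).

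Both effects were called, in opposite directions, for 2 of the 10. Plch1, a phospholipase C gene, rose without UNC and fell with it, at -0.83 ± 0.12 (limma adjusted p = 0.0113). Serpinb9, an inhibitor of granzyme B, fell without UNC and rose with it, at 1.00 ± 0.16 (limma adjusted p = 0.0197).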

How the results depend on the processing

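The count of genes changed by 3C was 7978 and ranged from 7201 to 8673 over the alternatives, with 7201 to 7364 when 1 library was left out; with UNC it was 7656, with 6838 to 7372 when 1 library was left out and 6945 to 8426 otherwise. Of the 7978 genes, 7298 were also called by DESeq2, 7778 by edgeR and 7974 with the replicate block in limma. The number at least 2-fold higher was 678, and 442 with a pseudocount of 8 or 376 with a minimum value of 50, which tests fewer genes. The number of genes whose 3C effect differed with UNC was unstable: 10 as reported, 26 with a pseudocount of 8, 17 by edgeR, 155 by DESeq2, 29 with thinned reads, 0 by limma without the mean-variance trend, 413 and 479 with the replicate block in limma and edgeR, and 0 to 70 when 1 library was left out; the cause was not tested. Without DOX replicate 1 or 2 it was 5 or 0, without DOX UNC replicate 1 or 2 it was 16 or 6, without DOX 3C replicate 1 or 2 it was 70 or 2, and without DOX 3C UNC replicate 1, 2 or 3 it was 20, 34 or 2. Of 184 named genes with a call, 178 kept it whichever library was left out, and the exceptions were Dnmt1, Gsk3b, Hba-a1, Lgr5, Mbd1 and Mbd2; none changed direction. The replicate block ended no call of a named gene. Genes with few reads are limited by depth, and their fold changes depend on the pseudocount.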

Other observations

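Some genes were close to silent in one group and measured in the other. With at most 1 read in each DOX library and at least 10 normalised counts in each DOX 3C library there were 13 genes, and 9 met the reverse rule. They were chosen after their values were seen. S100g, a calcium-binding protein of epithelia, averaged 25.6 normalised counts in DOX 3C and had no read in DOX, at least 19.7-fold higher with 3 reads over the group as the floor. Artn, which encodes the neurotrophic factor artemin, averaged 27.6 in DOX 3C and 1.30 in DOX, a ratio of 21.9 with a 95% counting interval of 7.27 to 108. Elf3, an epithelial ETS factor, averaged 16.1 in DOX 3C and 1.30 in DOX, a ratio of 12.4 with an interval of 4.04 to 62.2.

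In the other direction, Fam107a averaged 0.40 normalised counts in DOX 3C and 23.6 in DOX, 79.5-fold lower with an interval of 13.7 to 3198. Tnnt2, cardiac troponin T, averaged 0.26 in DOX 3C and 12.4 in DOX, 41.9-fold lower with an interval of 6.95 to 1713. Sprr3, a small proline-rich protein of squamous epithelia, averaged 0.90 in DOX 3C and 21.0 in DOX, 23.6-fold lower with an interval of 7.62 to 118.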
